A study of Mus musculus with 6 samples.

Results

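Solute carriers are membrane proteins that move nutrients, metabolites, metals and ions across the plasma membrane and the membranes of organelles. They were taken here as every row of the deposited expression table whose symbol is Slc followed by a digit, after 2 of 180 such symbols were left out, which gave 178 genes of 10539 in the table. The 178 genes belong to 41 numbered families, the largest being the mitochondrial carriers of family Slc25 with 34 genes. For 4 of them the symbol names a neighbour or a partner of a carrier and not a carrier (Slc4a1ap, Slc7a6os, Slc9a3r1 and Slc9a3r2). They were counted as members but kept out of the transport classes.

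The RNA came from lung alveolar macrophages of mouse strain C57BL/6, the resident phagocytes of the airspace, and all 6 libraries came from cells that overexpressed the transcription factor C/EBPβ. The group CEBP (3 libraries) had this overexpression, and the group CEBP-A (3 libraries) had it together with an adenovirus carrying A20, the ubiquitin-editing brake on NF-κB signalling encoded by Tnfaip3. The sources used here name neither the virus given to the CEBP cells nor the way C/EBPβ was overexpressed, and no cells without the overexpression were analysed here. The labels give no age and do not say whether the 3 libraries of a group came from separate animals or cultures, so the p-values rest on a spread between libraries that could be technical alone.

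Macrophages depend on carriers in several ways that are known from other work. Carriers of the inner mitochondrial membrane exchange ADP for ATP and supply the respiratory chain with its substrates, and transporters of arginine, glucose and lactate feed the metabolic programmes of activated cells. Carriers of the phagosome and lysosome withhold iron and manganese from engulfed microbes, recover haem from digested red cells and release amino acids, peptides and sugars. The comparison asked whether such genes differed between CEBP-A and CEBP, and whether the cargo of a carrier went with the direction.

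Depth is unknown because the values are FPKM, that is, fragments set relative to gene length and library size. Any pair of libraries correlated at a Pearson r of 0.973 to 0.990 over genes, on log2(FPKM + 1). CEBP-A replicate 3 stood apart, with a score of 25.7 on a leading principal component that took 44.3% of the variance and left the other 5 libraries at −11.7 to −0.095. Tnfaip3 stood at 7.32 to 15.5 FPKM in CEBP-A and at 8.76 to 19.2 in CEBP (limma adjusted p = 0.61). The labels do not say from which species the A20 of the virus came, so this mouse gene does not check them, and libraries are named as labelled. All 12 alveolar macrophage markers examined were listed, and their sum was 7215 to 8111 FPKM in CEBP and 7666 to 8636 in CEBP-A. Most of that sum was Chil3, and the groups did not overlap for Car4, Ear2 and Pparg, higher in CEBP-A, and Itgax, lower, though 0 of the 12 passed. Of the markers of other cells, 0 of 6 for lymphocytes, 0 of 5 for red cells, 1 of 6 for endothelium and fibroblasts, 1 of 6 for neutrophils and 2 of 8 for alveolar type 2 epithelium were among the genes used here. The type 2 cell markers Napsa and Abca3 summed to 45.8 to 51.6 FPKM in CEBP and 41.8 to 47.4 in CEBP-A, and the fibroblast marker Pdgfra stood at 0.684 to 1.00 and 0.551 to 0.657 FPKM. The neutrophil marker S100a8 stood at 199 to 251 FPKM in CEBP and 286 to 303 in CEBP-A, without overlap and without passing, and the part of these markers in the results was not tested. In such bulk RNA, fewer cells of a type and less RNA per cell cannot be told apart.

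No solute carrier gene passed the test between CEBP-A and CEBP. Of the 178 members, 167 had a mean of at least 1 FPKM and were tested in limma together with all 9617 genes above that level. Of these, 0 of 167 passed at an adjusted p of 0.05, where 5 of 9617 genes (0.052%) did, and the lowest adjusted p of a member was 0.561. At an unadjusted p under 0.05 there were 11 members, 3 higher and 8 lower in CEBP-A, or 6.59% against 8.18% of all genes tested (3.76% higher and 4.42% lower). The 3 libraries of CEBP-A did not overlap with those of CEBP for 19 members, 7 higher and 12 lower, or 11.4% against 16.8% of all genes (7.89% higher and 8.86% lower). With both directions together, the shares of the members were thus not above those of the whole table here. The 8 lower members at that unadjusted p were a share slightly above the 4.42% of all genes. With the replicate number as a block, 14.4% of members and 13.4% of all genes had an unadjusted p under 0.05.

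Differences of members were also small. Their median log2 difference, CEBP-A minus CEBP, was −0.023, beside −0.013 over all genes tested, and 73 of 167 (43.7%) were positive, beside 46.6% of all genes. The median of the members was 0.0078 after quantile normalization and 0.0031 without CEBP-A replicate 3, so its sign is not settled. For 131 members the difference was within 0.2 on the log2 scale and for 1 it reached 0.5. The 95% interval of the difference lay within 1 on the log2 scale for 162 of the 167 tested members and within 0.5 for 128. On this scale a gene of a few FPKM can differ by more than the interval shows, since 1 was added to each value. Of the 63 members named by rule, the difference was smaller by over 1.5 times without CEBP-A replicate 3 for 22, took the other sign for 7 and was larger by over 1.5 times for 4.

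The most abundant carriers were an ADP/ATP translocase (Slc25a5), a haem transporter (Slc48a1), the heavy chain of amino acid exchangers (Slc3a2) and the taurine transporter (Slc6a6), each at 100 FPKM or more. FPKM is scaled by gene length, so levels were set side by side between genes. This is only rough, since the gene lengths and the program that the authors used are not given. Member means over the 6 libraries ran from 0.289 to 232 FPKM, with a median of 5.93 beside 6.52 for all listed genes, and 119 members lay under 10 FPKM. The 9 members at 50 FPKM or more held 37.75% of the summed FPKM of all members. By class, mitochondrial carriers held 23.5% of that sum, carriers of amino acids and peptides 22.5%, of metal ions 21.4%, of nucleotide sugars and nucleosides 8.58% and of sugars 2.28%.

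**Figure D1:**
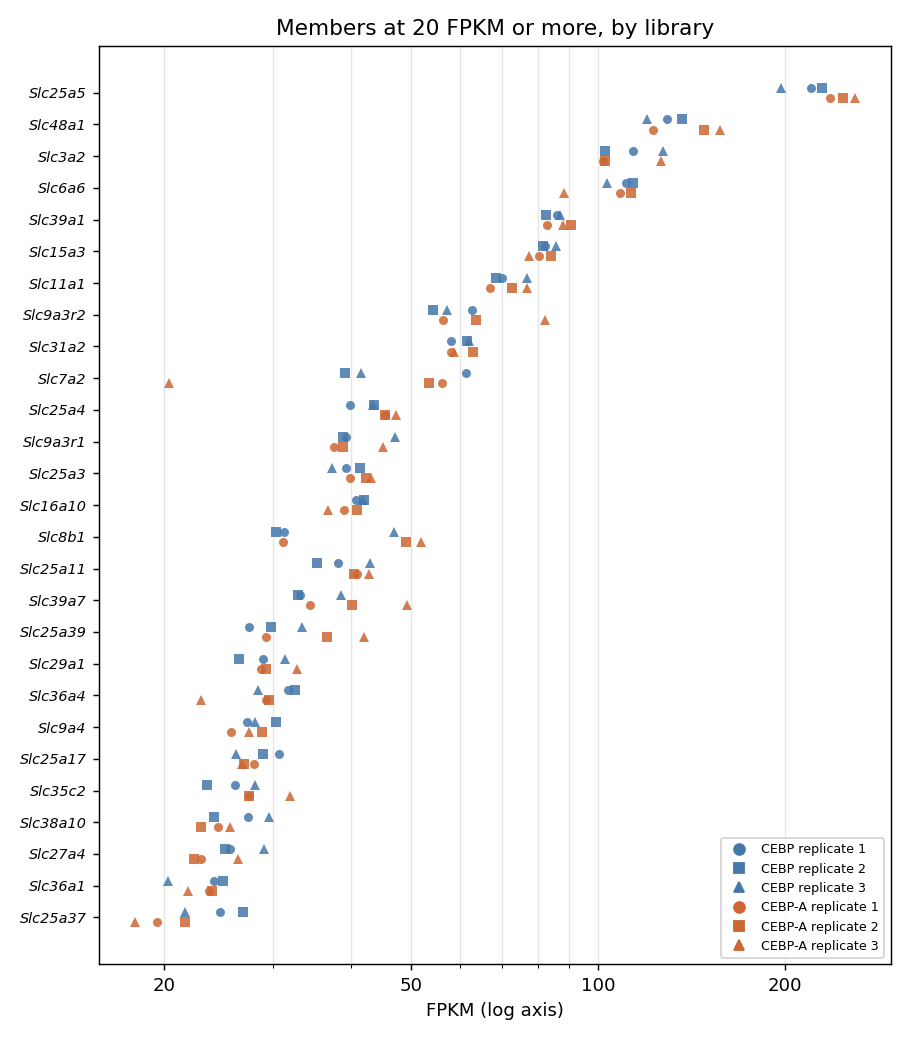
FPKM (log axis) of the 27 members with a mean of 20 FPKM or more, 1 row per gene ordered by mean level, 1 point per library (blue CEBP, orange CEBP-A, shape the replicate). Slc25a5 lies highest, at 197 to 259 FPKM, and the point farthest from its group is Slc7a2 in CEBP-A replicate 3, at 20.4 FPKM.

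Among carriers of mitochondria, amino acids, sugars and metals, the mitochondrial class alone had more positive than negative differences. Of 34 genes 31 were tested, 20 were positive, 0 passed and the median log2 difference was 0.061, within 0.047 to 0.087 under every alternative tried. Their summed level was 567, 586 and 552 FPKM in CEBP replicates 1, 2 and 3 and 594, 610 and 629 FPKM in CEBP-A, so the groups did not overlap in the sum. The summed level of all genes tested also had a higher mean in CEBP-A, 295640 FPKM beside 282030 in CEBP, with overlapping groups. The mitochondrial sum was not corrected for these totals. Slc25a5 alone held 39.2% of the mitochondrial sum. Its mean was 216 FPKM in CEBP and 248 in CEBP-A, where the mean of the whole sum was 568 and 611.

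Slc25a5 encodes an ADP/ATP translocase of the inner membrane and was the most abundant member of all (ENSMUSG00000016319.3, GRCm38 chromosome X, 36795651 to 36798807). It stood at 220, 229 and 197 FPKM in CEBP and at 236, 248 and 259 in CEBP-A. Every CEBP-A library lay above every CEBP library, by a mean of 1.15-fold, and the difference did not pass (log2 difference 0.20, SE 0.083, limma adjusted p = 0.588). Slc25a4, the other translocase, stood at 39.9, 43.6 and 43.5 FPKM in CEBP and at 45.5, 45.5 and 47.4 in CEBP-A, again with no overlap (log2 difference 0.12, adjusted p = 0.596). The ratio of the mean levels of these paralogs was 5.10 in CEBP and 5.37 in CEBP-A. How the authors divided reads that fit more than 1 gene copy is not given, and the translocases resemble each other in sequence.

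Of the other mitochondrial carriers named by rule, several had positive differences, and none passed. Slc25a3, the phosphate carrier, had a log2 difference of 0.087, Slc25a11, which exchanges oxoglutarate for malate, 0.096, and Slc25a10, the dicarboxylate carrier, 0.15. Slc25a20, which carries acylcarnitines in for fatty acid oxidation, stood at 5.43, 5.53 and 5.25 FPKM in CEBP and at 5.95, 5.91 and 6.32 in CEBP-A. Its groups did not overlap, and it did not pass (limma adjusted p = 0.594). Slc25a39, a carrier needed for mitochondrial glutathione, had a log2 difference of 0.23 with overlapping groups, and of 0.12 without CEBP-A replicate 3.

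Against these stood carriers with lower values in CEBP-A. Slc25a37, a mitoferrin, which brings iron into mitochondria for haem synthesis, stood at 24.7, 26.9 and 21.7 FPKM in CEBP and at 19.5, 21.6 and 17.99 in CEBP-A (ENSMUSG00000034248.7, chromosome 14, 69241848 to 69285112). Its groups touched but did not overlap, since the highest CEBP-A and the lowest CEBP library differed by less than 0.1 FPKM (log2 difference −0.29, SE 0.10, adjusted p = 0.588). Slc25a12, an aspartate and glutamate exchanger of the malate-aspartate shuttle, stood at 7.45, 7.86 and 6.75 FPKM in CEBP and 6.62, 6.26 and 5.74 in CEBP-A, also without overlap (log2 difference −0.21, adjusted p = 0.588). Their paralogs, the mitoferrin Slc25a28 and the exchanger Slc25a13, were picked once the values were known and had the opposite sign. Their log2 differences were 0.13 and 0.20, with overlapping groups (limma adjusted p = 0.616 and 0.602). The largest positive difference of all members was that of Slc25a22, a glutamate carrier, at 0.45. Its values of 1.65, 1.93 and 4.06 FPKM in CEBP spread over the whole range of CEBP-A (3.78, 3.91 and 3.25), and the adjusted p was 0.589.

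**Figure D2:**
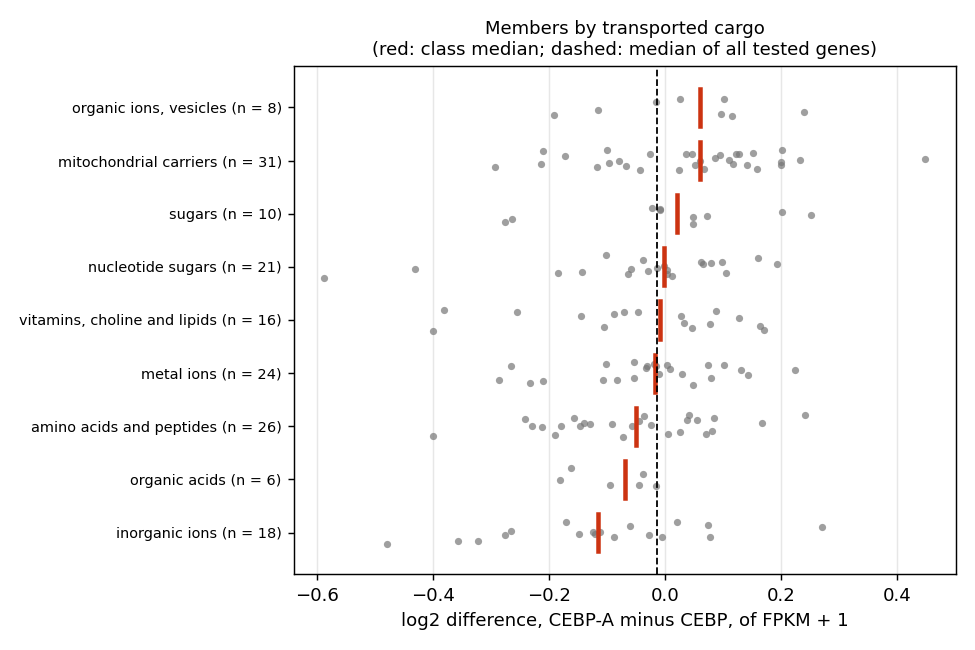
Log2 difference (CEBP-A minus CEBP, of FPKM + 1) of each tested member, 1 row per transport class with at least 6 tested members, gray points genes, red bars class medians, dashed line the median of all 9617 tested genes. Class medians lie between −0.12 for inorganic ions and 0.061 for mitochondrial carriers and for organic ion carriers, and each class spreads to both sides of 0 except the 6 organic acid carriers.

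Carriers of amino acids and peptides had a median log2 difference of −0.050 over 26 tested genes, 10 of them positive, and 0 passed. The median ran from −0.077 to −0.012 with single libraries left out, the latter without CEBP-A replicate 3. The most abundant were Slc3a2, the heavy chain that pairs with several amino acid exchangers (115 ± 12.3 FPKM in CEBP and 110 ± 13.9 in CEBP-A, SD, n = 3 each), and Slc6a6, the taurine transporter (109 ± 5.24 and 103 ± 13.2 FPKM). Slc15a3, a lysosomal transporter of peptides and histidine linked to innate immune signalling, stood at 83.2 ± 2.14 and 80.7 ± 3.28 FPKM, and its relative Slc15a4 at 11.2 ± 1.25 and 11.02 ± 1.26. The groups overlapped for all 4 genes. The light chains that pair with Slc3a2 had overlapping groups too, with log2 differences of −0.15 for Slc7a5, 0.072 for Slc7a7 and −0.24 for Slc7a8. Without CEBP-A replicate 3, Slc7a5 stood at −0.065 and Slc7a8 at −0.085 on that scale.

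The member with the lowest p of all was Slc43a3, which belongs to an amino acid transporter family and is itself known to carry purine nucleobases (ENSMUSG00000027074.14, chromosome 2, 84936579 to 84958509). It stood at 3.64, 4.08 and 3.85 FPKM in CEBP and at 2.68, 2.72 and 2.63 in CEBP-A. Each CEBP-A library lay below each CEBP library, the mean of CEBP was 1.44-fold that of CEBP-A, and the difference did not pass (log2 difference −0.40, SE 0.084, 95% interval −0.596 to −0.204, adjusted p = 0.561). Slc36a2, a proton-coupled transporter of small amino acids, stood at 3.59, 3.03 and 3.24 FPKM in CEBP and at 4.08, 3.82 and 4.28 in CEBP-A, the opposite order and again without overlap (log2 difference 0.24, adjusted p = 0.588). Slc36a4, of the same family, had a log2 difference of −0.18 with overlapping groups, and of −0.065 without CEBP-A replicate 3.

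Slc7a2, the transporter that supplies arginine to nitric oxide synthase and arginase, varied widely between libraries. It stood at 61.4, 39.2 and 41.5 FPKM in CEBP and at 56.03, 53.4 and 20.4 in CEBP-A. CEBP-A replicate 3 lay below the other 5 libraries and the groups overlapped (log2 difference −0.23, SE 0.37, adjusted p = 0.832). Without that library the difference was 0.23, of the opposite sign. Slc6a4, the serotonin transporter, was present at 10.3 ± 0.636 FPKM in CEBP and 11.04 ± 0.753 in CEBP-A.

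Sugar carriers were low and had differences of both signs. Over 10 tested genes the median log2 difference was 0.020, 5 were positive, 0 passed and the highest mean was 15.8 FPKM. Slc2a1, the common glucose uptake transporter, was the most abundant, at 15.5 ± 1.40 FPKM in CEBP and 16.1 ± 1.55 in CEBP-A. Its groups overlapped. Slc2a6, a hexose transporter of lysosomes known to be induced in inflammatory macrophages, stood at 4.62, 4.81 and 4.65 FPKM in CEBP and at 3.57, 4.13 and 3.56 in CEBP-A (ENSMUSG00000036067.12, chromosome 2, 27021363 to 27027998). Every CEBP-A library was lower, and the CEBP mean was 1.25-fold that of CEBP-A (log2 difference −0.26, SE 0.089, adjusted p = 0.588).

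The glucose-6-phosphate exchanger family Slc37 had 4 tested genes, 2 of them positive, and 0 passed. Slc37a1 stood at 2.66, 2.67 and 3.49 FPKM in CEBP and at 2.16, 2.21 and 2.35 in CEBP-A, without overlap (log2 difference −0.28, adjusted p = 0.588). Slc37a2, the member known from macrophages, stood at 1.87 ± 0.243 FPKM in CEBP and 1.97 ± 0.322 in CEBP-A, and Slc37a3 at 5.64 ± 0.786 and 5.95 ± 0.275, both with overlapping groups. Slc50a1, of the sugar efflux family, and Slc45a4, of a proton-coupled sugar carrier family, had log2 differences of 0.20 and 0.25 and overlapping groups.

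Metal ion carriers had no member at an unadjusted p under 0.05 among 24 tested, and their median log2 difference was −0.017, with 10 positive. This sign was not settled, since the median ran from −0.061 to 0.016 over the alternatives. Slc48a1, which moves haem out of the phagolysosome, was the second most abundant member of all and stood at 129, 137 and 120 FPKM in CEBP and at 123, 148 and 157 in CEBP-A. Its groups overlapped (log2 difference 0.14, SE 0.11, adjusted p = 0.640, and 0.070 without CEBP-A replicate 3). Slc11a1, which encodes a phagosomal carrier of iron and manganese, stood at 71.8 ± 4.51 FPKM in CEBP and 72.3 ± 4.96 in CEBP-A. Whether its protein works in these cells was not measured. Slc40a1, ferroportin, the cellular iron exporter, stood at 7.41 ± 0.400 and 7.11 ± 0.387 FPKM, and Slc11a2, the divalent metal importer of endosomes, at 6.40 ± 0.819 and 6.21 ± 0.0787. Slc25a37 was thus the only iron or haem carrier named here whose groups did not overlap.

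Zinc carriers were mostly importers by level. Family Slc39, which brings zinc into the cytosol, had 10 tested genes with a median log2 difference of 0.039 (0.021 to 0.083 over the alternatives) and 6 positive. Family Slc30, known mostly for taking zinc out of the cytosol, had 5 with a median of −0.11 (−0.19 to 0.015 over the alternatives) and 1 positive. The difference between the families was not tested. Slc39a1 was the most abundant, at 85.2 ± 2.26 FPKM in CEBP and 86.96 ± 3.86 in CEBP-A. Slc39a7, which releases zinc from the endoplasmic reticulum, stood at 33.1, 32.96 and 38.6 FPKM in CEBP and at 34.3, 40.2 and 49.3 in CEBP-A, and its groups overlapped. Slc39a13, a zinc carrier of the secretory pathway, stood at 7.06, 6.81 and 7.29 FPKM in CEBP and at 7.40, 7.54 and 8.57 in CEBP-A, with no overlap (log2 difference 0.13, adjusted p = 0.610). Without CEBP-A replicate 3 the difference was 0.092 for Slc39a7, from 0.22, and 0.073 for Slc39a13. Slc39a14 had a log2 difference of −0.032.

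Slc30a1, the zinc exporter of the plasma membrane and a known target of the metal-sensing factor MTF-1, stood at 8.64, 11.1 and 9.01 FPKM in CEBP and at 8.36, 8.69 and 6.09 in CEBP-A (ENSMUSG00000037434.7, chromosome 1, 191906767 to 191913247). The groups overlapped by 1 library pair, CEBP-A replicate 2 lying just above CEBP replicate 1 (log2 difference −0.29, SE 0.15, adjusted p = 0.589). Slc41a1, a magnesium carrier, had a log2 difference of −0.21 with overlapping groups. Without CEBP-A replicate 3 the difference was −0.14 for Slc30a1 and −0.048 for Slc41a1. Slc31a2, of the copper transporter family and picked by its level once the values were known, measured 60.6 ± 2.21 FPKM in CEBP and 59.8 ± 2.68 in CEBP-A.

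The lactate transporters had overlapping groups. Slc16a1 stood at 10.4 ± 1.001 FPKM in CEBP and 10.3 ± 0.284 in CEBP-A, and Slc16a3, the isoform known for lactate export from glycolytic cells, at 9.86 ± 0.300 and 9.54 ± 0.553. All 6 tested genes of the organic acid class were negative, with a median log2 difference of −0.069 and 0 passing, and the groups overlapped for each. The most abundant, Slc16a10, which carries aromatic amino acids, stood at 41.6 ± 0.657 and 38.9 ± 2.09 FPKM. Slc16a6 had a log2 difference of −0.18, and of −0.068 without CEBP-A replicate 3.

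Nucleotide sugar and nucleoside carriers, which feed glycosylation in the Golgi apparatus and recover nucleosides, had a median log2 difference of −0.0011 over 21 tested genes, 10 of them positive. Slc35a2, the Golgi importer of UDP-galactose, had the largest difference of all members (ENSMUSG00000031156.18, chromosome X, 7884028 to 7894492). It stood at 2.60, 2.74 and 3.33 FPKM in CEBP and at 1.89, 2.01 and 0.977 in CEBP-A, so that each CEBP-A library was lower (log2 difference −0.59, SE 0.17, adjusted p = 0.588). Slc35b1, which exchanges ATP for ADP across the endoplasmic reticulum, stood at 16.2, 15.6 and 14.1 FPKM in CEBP and at 17.04, 17.5 and 18.3 in CEBP-A, without overlap (log2 difference 0.19, adjusted p = 0.588). Slc35c2, Slc29a1 and the lysosomal nucleoside transporter Slc29a3 had log2 differences of 0.16, 0.062 and −0.064 and overlapping groups. These were 0.089, 0.0038 and 0.10 without CEBP-A replicate 3.

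Carriers of sodium, protons, chloride, bicarbonate, calcium and sulphate had the lowest median of the larger classes, −0.12 on the log2 scale over 18 tested genes, 14 of them negative. The median was −0.030 without CEBP-A replicate 3. Slc9a8, a sodium-proton exchanger of the Golgi apparatus, stood at 3.67, 4.10 and 4.20 FPKM in CEBP and at 3.03, 3.47 and 2.88 in CEBP-A. Its groups did not overlap (log2 difference −0.28, adjusted p = 0.588). Slc8a1, a sodium-calcium exchanger picked once the values were known, stood at 18.01, 19.1 and 16.7 FPKM in CEBP and at 18.1, 12.996 and 8.31 in CEBP-A, and its groups overlapped (log2 difference −0.48, adjusted p = 0.588). The most abundant of the class, Slc8b1, the mitochondrial sodium-calcium exchanger, stood at 36.2 ± 9.38 FPKM in CEBP and 44.1 ± 11.3 in CEBP-A with overlapping groups.

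Of the remaining carriers, those of vitamins, choline and lipids had a median log2 difference of −0.0089 over 16 tested genes. Slc23a2, which takes up vitamin C, stood at 14.8, 15.3 and 13.6 FPKM in CEBP and at 12.6, 13.6 and 10.1 in CEBP-A, its groups differing by less than 0.1 FPKM at their closest libraries. Slc10a7, of the bile acid transporter family, stood at 1.84, 2.12 and 1.96 FPKM in CEBP and at 1.62, 0.740 and 1.501 in CEBP-A, without overlap. Slc27a4, which takes up and activates long-chain fatty acids, stood at 26.5 ± 2.15 and 23.9 ± 2.16 FPKM with overlapping groups. None of the 3 passed (adjusted p = 0.588, 0.588 and 0.609).

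Both phosphate importers had lower means in CEBP-A. Slc20a2 stood at 1.76, 1.66 and 1.81 FPKM in CEBP and at 1.24, 1.43 and 1.34 in CEBP-A, without overlap (log2 difference −0.23, adjusted p = 0.588), and Slc20a1 at 11.6 ± 0.465 and 10.3 ± 1.05 FPKM, with overlap. The myo-inositol transporter Slc5a3, placed in no class, had a log2 difference of −0.28. In the class of organic ions and vesicle transporters (8 tested, median 0.061, or 0.016 without CEBP replicate 3, 5 positive), Slc22a17 and Slc22a18 had log2 differences of −0.19 and −0.12. The lysosomal sialic acid exporter Slc17a5 stood at 13.5, 27.8 and 12.1 FPKM in CEBP and at 24.6, 25.5 and 12.3 in CEBP-A. Its libraries of both groups lay either at 12.1 to 13.5 or at 24.6 to 27.8 FPKM. Of the members that are not carriers, the scaffold Slc9a3r2 and Slc4a1ap had log2 differences of 0.20 and −0.070, and of 0.046 and 0.0062 without CEBP-A replicate 3. Of the 63 members named by rule, 14 took the other sign in at least 1 alternative, among them Slc3a2, Slc6a6, Slc2a1, Slc11a1, Slc16a1 and Slc39a1.

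**Figure D3:**
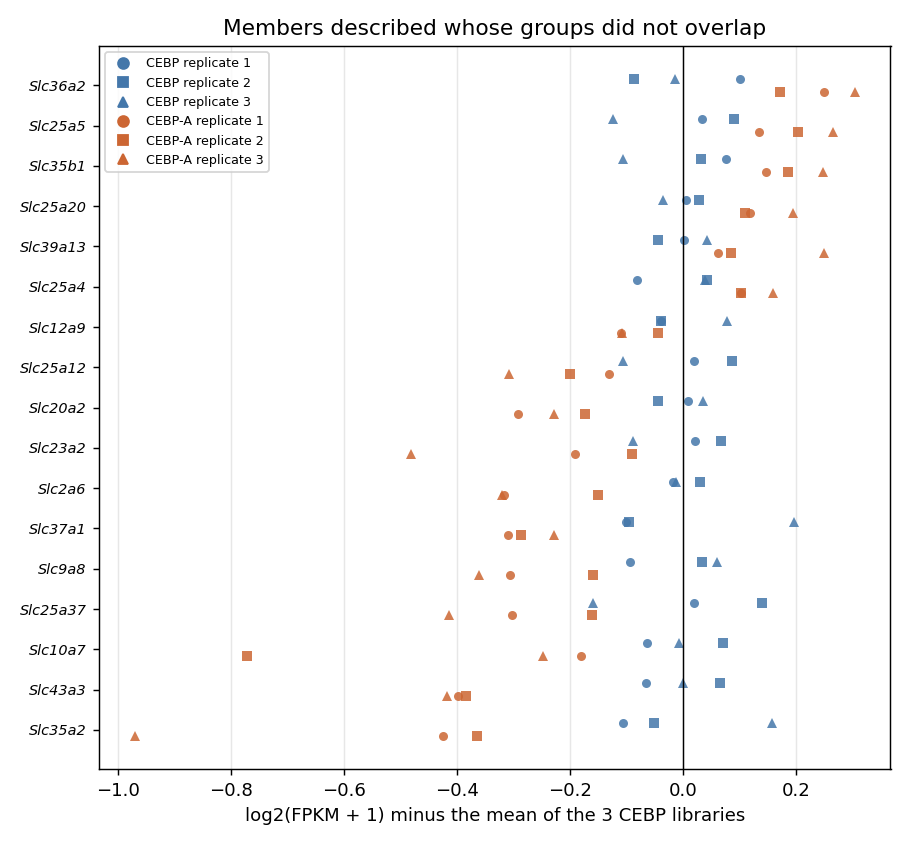
The 17 members described in the text whose groups did not overlap, 1 row per gene ordered by mean difference, each point the log2(FPKM + 1) of 1 library minus the mean of the 3 CEBP libraries (blue CEBP, orange CEBP-A, shape the replicate). The 6 members at the top lie higher and the 11 at the bottom lower in CEBP-A. CEBP-A replicate 3 is the farthest point for each of the 6 at the top. It is also the farthest for most of those at the bottom, among them Slc35a2, Slc23a2, Slc25a37, Slc25a12 and Slc9a8.

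The 19 members whose groups did not overlap, 17 of them drawn by library in the plot of separated members, came from several classes. Mitochondrial carriers gave 4 of the 7 higher, among them Slc25a5, Slc25a4 and Slc25a20, and 2 of the 12 lower. Together these were 19.4% of the 31 tested mitochondrial carriers, near the 16.8% of all genes tested. The remaining 3 higher were Slc36a2, Slc35b1 and Slc39a13. Among the 12 lower ones were Slc43a3, Slc35a2, Slc2a6, Slc37a1, Slc9a8, Slc12a9 (picked once the values were known), Slc25a37, Slc25a12, Slc20a2, Slc10a7 and Slc23a2. Without CEBP-A replicate 3 the groups of 3 and 2 libraries did not overlap for 11 members higher and 17 lower, where 22.2% of all genes did not overlap.

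Promoter letters were read for the factors that the design names or that are tied to a member, and are shown for 4 members picked after their values were seen. RefSeq promoters on GRCm38.p6 were matched by symbol for 130 of the 178 members, and the 250 bases before the start were searched on both strands. An NF-κB motif, read loosely as GGGA, any 4 bases and CC, was present in 35 of the 130 (26.9%), beside 25.7% of 8279 listed genes with a promoter. A C/EBP motif, TTGCNNAA, was present in 10 (7.69%), beside 9.18%. A metal response element, read loosely as TGCNCNC, was present in 73 (56.2%), beside 56.5%. Each N stands for any base. The shares of the members were thus close to those of listed genes for all 3 motifs. A gene with several listed starts was counted where any of them held the motif. Capitals mark the match in each sequence, written 5′ to 3′ on the strand of the gene.
Slc2a6, chr2:27027999-27028248, minus strand, NF-κB motif starting 101 bases before the start: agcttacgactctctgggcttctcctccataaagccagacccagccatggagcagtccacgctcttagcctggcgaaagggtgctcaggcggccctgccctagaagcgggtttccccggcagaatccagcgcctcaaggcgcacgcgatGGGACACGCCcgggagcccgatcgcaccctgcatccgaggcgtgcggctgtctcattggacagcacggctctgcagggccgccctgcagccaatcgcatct
Slc25a5, chrX:36795347-36795596, plus strand, NF-κB motif on the other strand, 88 bases before the start: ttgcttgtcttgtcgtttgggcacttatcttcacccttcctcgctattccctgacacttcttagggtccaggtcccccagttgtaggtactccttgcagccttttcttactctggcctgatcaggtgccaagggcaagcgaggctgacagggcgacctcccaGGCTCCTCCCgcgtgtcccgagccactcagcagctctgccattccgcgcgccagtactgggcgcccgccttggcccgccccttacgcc
Slc25a12, chr2:71367756-71368005, minus strand, C/EBP motif 154 bases before the start: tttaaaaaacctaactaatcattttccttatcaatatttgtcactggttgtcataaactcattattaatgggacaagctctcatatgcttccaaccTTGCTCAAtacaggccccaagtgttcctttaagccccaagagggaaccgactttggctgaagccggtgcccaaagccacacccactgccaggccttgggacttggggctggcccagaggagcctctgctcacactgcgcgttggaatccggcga
Slc30a1, chr1:191906531-191906780, plus strand, metal response element on the other strand, 43 bases before the start: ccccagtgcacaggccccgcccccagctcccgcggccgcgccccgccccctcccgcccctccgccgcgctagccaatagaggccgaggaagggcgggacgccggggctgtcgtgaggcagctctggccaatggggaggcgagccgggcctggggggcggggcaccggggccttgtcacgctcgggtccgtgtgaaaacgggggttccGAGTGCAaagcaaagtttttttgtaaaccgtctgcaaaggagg

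Slc2a6 and Slc25a5, both picked after their values were seen, hold the NF-κB letters and had log2 differences of −0.26 and 0.20. Whether such letters go with the direction was not tested. Among members whose groups did not overlap, the NF-κB motif was present in 3 of 5 higher and 3 of 8 lower genes with a promoter, the C/EBP motif in 0 and 2, and the metal response element in 3 and 7. A match describes letters in the window and is not a measured binding site.

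**Figure D4:**
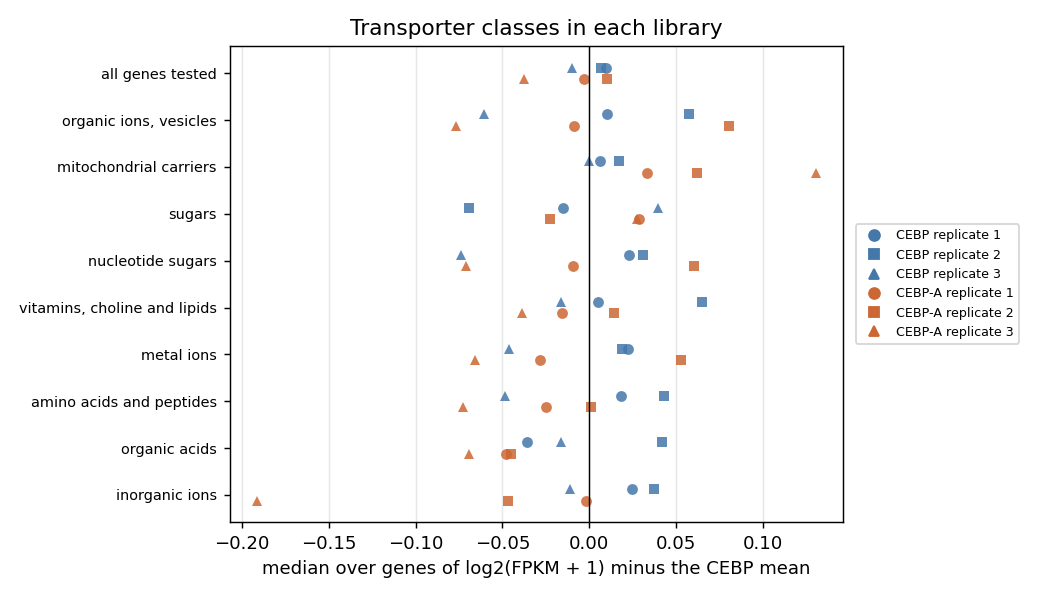
For each transport class and for all tested genes, the median over genes of log2(FPKM + 1) minus the mean of the 3 CEBP libraries, 1 point per library (blue CEBP, orange CEBP-A, shape the replicate). CEBP-A replicate 3 is the highest library for mitochondrial carriers, at 0.13, and the lowest for inorganic ions, at −0.19.

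The direction of members also went with transcript length. Across the 167 tested members, longer transcripts went with lower log2 differences (Spearman's rho −0.50, all genes measured in the same 6 libraries), as they did across 9570 tested genes with a length (−0.55). Without CEBP-A replicate 3 the values were −0.23 and −0.33. The 56 shortest members, up to 2732 bases, had a median log2 difference of 0.079, and the 56 longest a median of −0.11. These medians were 0.050 and −0.0055 without CEBP-A replicate 3. CEBP-A replicate 3 was the highest or the lowest of the 6 libraries for 58.1% of members, beside 61.2% of all genes tested.

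Mitochondrial carriers have short transcripts (median 2614 bases) and inorganic ion carriers long ones (4598.5), beside 3370 for all tested members. Within the 31 mitochondrial carriers the rho was −0.64, and −0.41 without CEBP-A replicate 3. The median was 0.12 for their 10 shortest, up to 1805 bases, 0.11 for the 11 in the middle and −0.088 for the 10 longest, and without that library it was 0.069, 0.10 and −0.068. Slc25a5 (1240 bases), Slc25a20 (1783) and Slc25a4 (1925) are short and lay higher in CEBP-A, and Slc25a37 (4174) and Slc25a12 (6351) are long and lay lower. Within the 136 other members the rho was −0.41, and −0.12 without CEBP-A replicate 3. The part of length in the class medians was not tested.

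**Figure D5:**
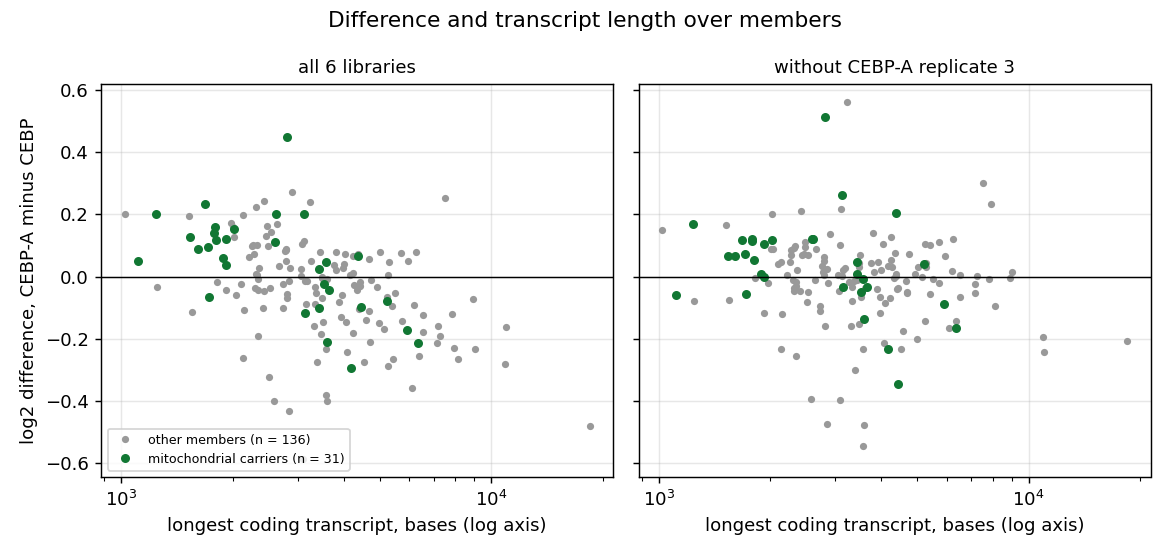
Log2 difference (CEBP-A minus CEBP) of each tested member against the length of its longest coding transcript (log axis, bases), with all 6 libraries on the left and without CEBP-A replicate 3 on the right, green the 31 mitochondrial carriers and gray the 136 other members. Points fall from upper left to lower right on the left (Spearman rho −0.50 over all members) and less so on the right (−0.23).

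Carriers with other symbols and the proteins that handle the cargo also gave 0 calls. Of 20 such carriers, 16 were listed and 15 tested, 0 passed, and the median log2 difference was 0.11 with 11 positive. Mpc2, a subunit of the mitochondrial pyruvate carrier, stood at 10.97, 10.89 and 12.8 FPKM in CEBP and at 14.4, 14.1 and 13.5 in CEBP-A, without overlap (log2 difference 0.26, adjusted p = 0.588). The organic anion carrier Slco4a1 stood at 2.85, 2.81 and 2.43 FPKM in CEBP and at 3.10, 4.13 and 7.09 in CEBP-A (log2 difference 0.59, adjusted p = 0.588). Of 30 partners and cargo handlers, 25 were listed and 24 tested, 0 passed, and the median was 0.085 with 18 positive. They included Atp1b3, a subunit of the sodium pump that drives many carriers, at 278, 281 and 251 FPKM in CEBP and 307, 319 and 339 in CEBP-A (log2 difference 0.25, adjusted p = 0.588). Bsg, the chaperone of lactate transporters, and the iron store subunit Fth1 had log2 differences of 0.14 and 0.16 and overlapping groups. Of the 6 negative partners, Atp7a stood at −0.45 and Mtf1, the gene of MTF-1, at −0.24 on that scale. Of the 4 negative carriers with other symbols, Xpr1 stood at −0.17. The groups overlapped for Atp7a, Mtf1 and Xpr1. The members of these lists named here were picked after their values were seen.

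The members below the level tested were 11 genes with means under 1 FPKM, among them 3 mitochondrial carriers, and the groups did not overlap for 1 of them, Slc39a12 (0.392, 0.371 and 0.422 FPKM in CEBP and 0.499, 0.477 and 0.620 in CEBP-A). Slc2a3, Slc34a2, Slc39a8 and Slc9a9, carriers with known roles in macrophages or lung, are not among the genes used here.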

How the data were processed

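The authors deposited FPKM values, 1 column per library, for 10539 genes of type protein_coding, per the file headers. The submitters' processing notes name GRCm38 as the build. The sources used here give no aligner, FPKM program or rule for listing genes. FPKM depends on the authors' gene lengths and library totals (278907 to 313215 over listed genes). Low values showed no clear whole-read steps (highest periodicity 0.196 to 0.275, where 1 is whole), so depth is unknown.

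The 9617 genes that averaged 1 FPKM or more were fitted as log2(FPKM + 1) in limma 3.58.1 (R 4.3.3, intensity trend, no covariate), with two-sided p adjusted by Benjamini-Hochberg over all of them and a threshold of 0.05. The added 1 understates differences of low genes. Classes are described by counts and medians, with no test. The fit was tested on simulated data in which no library stood apart, unlike CEBP-A replicate 3 here. Lengths are of the longest coding transcript in GENCODE M21. Members, classes and lists were chosen with earlier results of these data known. The class plan was changed once, to set apart 4 genes that are not carriers.

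Named members were the 10 with the smallest p each way, the 4 with the smallest p and the 3 most abundant of the mitochondrial, amino acid, sugar and metal classes, 2 and 1 of every other class, and members with known macrophage or lung roles. Others named are marked as picked once values were known. The closing section gives the effect of 14 alternatives. Some members are counted but not reported here by name.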

Additional observations from a re-analysis of the deposited data

How the results depend on the processing

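No member passed in any of the 14 alternatives: pseudocounts of 0.1 and 0.5, the low-value filter dropped or raised to 5 FPKM, median-of-ratios scaling, quantile normalization, no trend, the replicate block, and each of the 6 libraries left out. The lowest adjusted p of any member in them was 0.185 (limma, without CEBP replicate 2). Members at an unadjusted p under 0.05 (11) numbered 3 with the raised filter, where fewer genes were tested, 7 after quantile normalization, 24 with the replicate block (14.4% of members, above the 13.4% of all genes), and 7 to 13 with single libraries left out, 7 without CEBP replicate 2. Same-numbered libraries deviated together with r of 0.099, 0.25 and 0.26. Pairing was taken to need every r above 0.1, which replicate 1 missed narrowly. Deviations of differently numbered libraries were not correlated, so there is no r to read these against. The block is therefore given only as an alternative and the pairing is unsettled. Without CEBP replicate 1, 4.79% of members and 4.75% of all genes were under that p. Calls over all genes (5) were 1 with the block, 1 without CEBP-A replicate 1, 9 without CEBP-A replicate 3, 0 with the raised filter and 2 after quantile normalization or without CEBP replicate 3.

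Class medians that moved by more than the spread between libraries were those of phosphate (−0.27 and −0.23 with pseudocounts of 0.1 and 0.5, −0.16 with the raised filter, −0.16 after quantile normalization), sugars (0.073 with the raised filter, −0.029 to 0.055 with single libraries left out), vitamins, choline and lipids (−0.078 with the raised filter, 0.039 after quantile normalization, −0.058 to 0.014 with single libraries left out) and inorganic ions (−0.14 to −0.030 with single libraries left out).

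Of 63 named members, 49 kept their sign in every alternative. After quantile normalization the log2 difference took the other sign for Slc39a14 (0.019), Slc11a2 (0.0067), Slc11a1 (−0.041), Slc16a1 (0.0094) and Slc39a1 (−0.028). With single libraries left out the sign changed within the range for Slc11a1 (−0.036 to 0.061), Slc11a2 (−0.13 to 0.019), Slc15a4 (−0.11 to 0.049), Slc16a1 (−0.090 to 0.030), Slc29a3 (−0.18 to 0.10), Slc2a1 (−0.018 to 0.12), Slc37a2 (−0.034 to 0.12), Slc37a3 (−0.0065 to 0.16), Slc39a14 (−0.083 to 0.018), Slc3a2 (−0.16 to 0.021), Slc4a1ap (−0.13 to 0.0062), Slc6a6 (−0.16 to 0.017) and Slc7a2 (−0.48 to 0.23). None of these passed in the report. Where no fewer genes or libraries were used, the cause was not tested. The number of libraries limits the precision, and depth is unknown.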
